A study of Equus caballus with 4 samples.

Results

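The mTOR and AKT pathway was examined at the transcript level through 10 genes, namely *MTOR*, *RPTOR*, *RICTOR*, *AKT1*, *AKT2*, *TSC1*, *TSC2*, *DDIT4*, *RPS6KB1* and *EIF4EBP1*. Every probe of the horse microarray whose gene symbol equalled one of these names was taken. This gave 17 probes for 9 of the 10 genes, among 43603 probes and 13350 gene symbols in all. No probe carried the symbol *RICTOR*, and 2 probes whose gene description names *RICTOR* are given separately. The experiment used equine satellite cells, the muscle precursor cells that fuse into fibres, grown as primary cultures from m. semitendinosus of 6 months old stallions. On 4 two-colour arrays, all on 1 slide, cells on day 3 of differentiation that had received 50 µM β-hydroxy-β-methylbutyrate (HMB, a leucine metabolite) for 24 h and 3 mM H2O2 in the last 1 h (HMB-treated group, Cy5) were hybridised with cells given H2O2 without HMB (control, Cy3). Both groups were exposed to H2O2, so every ratio compares HMB with no HMB in cells under the same oxidative exposure. Of the cultures isolated, the study carried on with the 1 that scored best in viability and fusion, so the 4 arrays may all come from a single culture, and p-values measure the spread between these arrays only. The control carries the same replicate label on each array, and the dyes were not exchanged, hence HMB and Cy5 cannot be told apart.

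AKT is a kinase activated downstream of insulin and growth factor receptors through phosphoinositide 3-kinase (PI3K). It relieves the brake that the TSC1 and TSC2 proteins place on mTOR, the kinase that forms complex 1 with raptor (*RPTOR*) and complex 2 with rictor (*RICTOR*). In muscle, complex 1 drives protein synthesis through S6 kinase (*RPS6KB1*) and the translation repressor 4E-BP1 (*EIF4EBP1*), complex 2 phosphorylates AKT, and the stress-induced protein REDD1 (*DDIT4*) inhibits complex 1. These proteins are controlled largely by phosphorylation, which an array of transcripts does not measure.

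The 2 *AKT* probes are shown because they cover the same stretch of related genes and yet gave different ratios. In an ungapped alignment they overlapped by 40 bases, of which 32 were identical (80%), and capitals mark those identical bases.
AKT1: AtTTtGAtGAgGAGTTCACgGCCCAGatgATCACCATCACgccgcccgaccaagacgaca
AKT2: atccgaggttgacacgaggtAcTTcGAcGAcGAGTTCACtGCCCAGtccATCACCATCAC
The brighter probe with a *RICTOR* description is shown because its identity rests on that description and not on a symbol.
RICTOR: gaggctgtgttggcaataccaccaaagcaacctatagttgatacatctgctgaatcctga
Positions below are those in the array files, on the EquCab1 build. The files place each probe on a chromosome and do not say whether it lies in a coding or an untranslated exon. The *AKT1* probe lies at chr24:45608534-45608881 on the minus strand and spans 348 genomic bases with its 60 bases, and the *AKT2* probe lies at chr10:10707946-10708005 on the minus strand.

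Each value is the log2 ratio of HMB-treated over control signal, so positive values mean more transcript with HMB. A probe was tested when 1 channel was well above background on all 4 arrays. It was called changed at a Benjamini-Hochberg adjusted p of at most 0.05 from limma's moderated test over 24670 probes together with a fold change (FC) of at least 1.3 (0.38 on the log2 scale). Of the 17 member probes, 15 were tested, and they stood for 8 genes. Called changed were 2 of these 15 probes, against 28.6% of all tested probes, and both were lower with HMB, as were 16.4% of all tested probes. Represented by its brightest tested probe, 1 of 8 genes (12.5%) was called, against 27.3% of 8320 gene symbols, and that gene was *AKT2*. Both called probes passed the filter through the control channel alone. With both channels required 0 member probes were called, against 5870 of 22653 probes in all. With the adjusted p alone 4 of 8 genes passed, against 45.6% of all gene symbols. Without array 1, 2, 3 or 4, 2 of 8 passed. No share of all gene symbols is given for those fits, so whether this drop is particular to these genes cannot be told. The median log2 ratio was 0.00 over the 8 genes and -0.09 over all gene symbols, and the median absolute log2 ratio was 0.17 and 0.22, respectively. For 5 of 8 genes the 95% interval of the ratio lay wholly within 1.3-fold in either direction, as it did for 40.6% of all gene symbols.

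**Figure D1:**
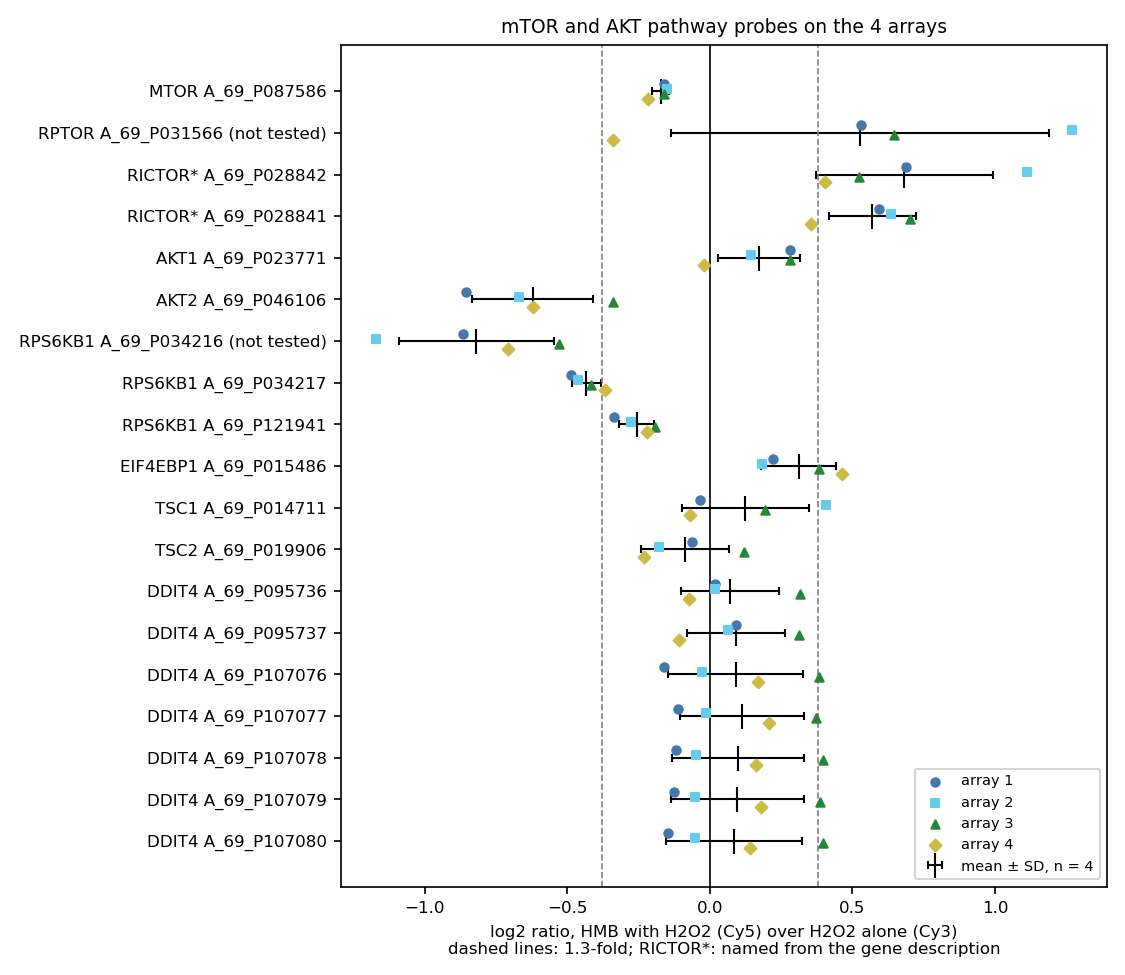
Log2 ratio of HMB-treated over control cells (horizontal axis) for every member probe and the 2 probes described as *RICTOR* (marked with an asterisk), with 1 symbol per array, the mean and the SD of 4 arrays. The *AKT2* and *RPS6KB1* probes lay below 0 on all 4 arrays and the *RICTOR* probes above 0, while the *DDIT4*, *TSC1* and *TSC2* probes lay on both sides.

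Across the series, 57.6 to 60.6% of spots were well above background in Cy3 and 55.2 to 61.8% in Cy5, and the 4 arrays correlated at r = 0.84 to 0.92 over tested probes. Markers of muscle were detected, and of 8 with a probe 6 fell with HMB, among them *DES* (log2 ratio -1.22 ± 0.29, SD, n = 4) and *MYH3* (-1.38 ± 0.33). Of the myogenic regulators, *MYF5* fell (-1.49 ± 0.34), while *MYOD1* (0.32 ± 0.25) and *MYOG* (0.03 ± 0.22) were not called. The summed signal of this list was 169656 to 191451 in control and 64754 to 102980 in HMB-treated cells. Of 4 fibroblast and mesenchymal markers 3 rose, with sums of 182733 to 212091 in control and 208963 to 319800 in HMB-treated cells. Of 3 leukocyte markers with a probe, *CD68* rose and *CD14* was not called (0.20 ± 0.19). *CD3E* was not well above background on any array. The sums were 3662 to 4400 in control and 4136 to 6177 with HMB, mostly from *CD14* (3593 to 4315 and 3978 to 5983). None of 4 endothelial markers was well above background in either channel on any array. Neither of the 2 adipocyte markers with a probe could be tested, and the muscle stem cell marker *PAX7* had no probe under its symbol. These shifts moved with HMB as did every ratio below, and their part in those ratios was not tested. In RNA from whole cultures, fewer cells of a type and less RNA per cell cannot be told apart.

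Among the subunits of the mTOR complexes, *MTOR* itself, the catalytic kinase of both, was lower with HMB by a small and even amount. Its probe (chr2:38470026-38470085) gave control signals of 392, 360, 450 and 373 and HMB-treated signals of 351, 325, 402 and 321 on arrays 1 to 4. The HMB-treated channel was the lower one on each array, although the groups overlapped in signal across arrays. The log2 ratios were -0.16, -0.15, -0.16 and -0.22, with a mean of -0.17 ± 0.03 (SD, n = 4), a FC of 1.13 and an adjusted p = 0.0497 with limma. This was not called because the fold lay under 1.3, and the 95% interval of -0.31 to -0.03 stayed within that limit. Only 0.938% of gene symbols had a smaller SD across the arrays. The ratio depended on the processing, at -0.06 with loess after normexp correction (adjusted p = 0.366, limma) and -0.05 with loess and no background correction (adjusted p = 0.431, limma). It was -0.09 with median centring without lowess (adjusted p = 0.334, limma). After scaling to the spike-in controls it was -0.59 and *MTOR* was called (adjusted p = 2.82e-04, limma).

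*RPTOR*, the scaffold that presents substrates to complex 1, could not be tested. Its probe (chr11:913581-913640, minus strand) gave 21.4, 12.7, 24.4 and 19.9 in control and 30.9, 30.6, 38.1 and 15.7 in HMB-treated cells. The control channel never stood well above background and the HMB-treated channel did so on 2 of 4 arrays, the lowest signals so called being 18.3 to 28.1. Its ratios of 0.53, 1.27, 0.65 and -0.34 differed in sign. With every probe tested, the adjusted p of *RPTOR* was 0.305 with limma.

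*RICTOR*, the defining subunit of complex 2, was higher with HMB by both probes that the gene description assigns to it. The brighter probe (chr21:22586318-22586377) gave 69.1, 58.5, 81.1 and 61.7 in control and 104, 90.9, 132 and 78.8 in HMB-treated cells, all well above background. HMB-treated signals exceeded control signals on each array, and the groups overlapped only in that array 4 with HMB (78.8) lay below array 3 of the control (81.1). The log2 ratios were 0.59, 0.63, 0.70 and 0.35, with a mean of 0.57 ± 0.15 (SD, n = 4), FC 1.49, adjusted p = 0.0019 with limma.

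The dimmer *RICTOR* probe (chr21:22586122-22586306, 185 genomic bases) gave ratios of 0.69, 1.11, 0.52 and 0.40, with a mean of 0.68 ± 0.31, FC 1.60, adjusted p = 0.0053 with limma. The probes differed in the array with the highest ratio, and both had the lowest on array 4. Counted with the genes named by symbol, *RICTOR* made 2 of 9 genes called, against 27.3% of all gene symbols. These 2 probes lie on the same transcript and are not independent measurements of the gene. The rise was smaller when the arrays were reprocessed: with loess and no background correction the brighter probe gave 0.33 and with loess after normexp correction (offset 50) 0.22, both under 1.3-fold, and after scaling to the spike-in controls it gave 0.16 (adjusted p = 0.132, limma).

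Of the other complex subunits and assembly factors fixed as a list, 6 of 8 were tested and none was called, against 27.3% of all gene symbols. Values ranged from -0.23 to 0.12, with a median of -0.11. *MLST8*, the small subunit common to both complexes, gave -0.06 ± 0.05, and *MAPKAP1*, which encodes the complex 2 subunit mSIN1, gave -0.13 ± 0.08 (SD, n = 4). No tested subunit other than *RICTOR* was thus called.

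The 2 *AKT* genes lay on opposite sides of 0 in their mean ratios, except after scaling to the spike-in controls, where *AKT1* was also below 0 (-0.24), and of these *AKT2* passed the test. *AKT1*, the widely expressed isoform tied to growth, gave control signals of 412, 408, 430 and 339 and HMB-treated signals of 501, 451, 522 and 334. HMB-treated cells were higher on arrays 1 to 3 and level with control on array 4. The ratios of 0.28, 0.14, 0.28 and -0.02 averaged 0.17 ± 0.14 (SD, n = 4; adjusted p = 0.107, limma), with an interval of -0.01 to 0.35 that stayed within 1.3-fold.

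*AKT2*, the isoform tied to insulin-stimulated glucose uptake, was the single member gene called, and it was lower with HMB. The call rests on a probe kept through its control channel alone. Its signals were close to background, at 36.6, 39.4, 39.0 and 39.5 in control and 20.2, 24.8, 30.8 and 25.7 in HMB-treated cells. The control channel was well above background on 4 of 4 arrays and the HMB-treated channel on 2 of 4, and the groups did not overlap. The log2 ratios of -0.86, -0.67, -0.34 and -0.62 averaged -0.62 ± 0.21 (SD, n = 4), FC 1.54, adjusted p = 0.0027 with limma. In absolute size, 86.5% of gene symbols had a smaller ratio.

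The ratio of *AKT2* also depended on how the arrays were processed. It was smaller, at -0.23 with loess and no background correction (adjusted p = 0.0103, limma) and -0.17 with loess after normexp correction (adjusted p = 0.0835), each under 1.3-fold. It was larger in size, at -0.84 with median centring without lowess (adjusted p = 0.0011, limma) and -1.04 after spike-in scaling (adjusted p = 2.59e-04, limma). *AKT2* was not tested when both channels had to be well above background. The difference of *AKT2* minus *AKT1* was -1.14, -0.82, -0.62 and -0.60 on the arrays, with a mean of -0.79 ± 0.25. An exact two-sided sign-flip permutation test gave p = 0.125, the smallest 4 arrays allow, and 0.125 after adjustment over 3 such pairs.

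Of 8319 other gene symbols, the 3 whose array pattern was nearest to that of *AKT2* were *TANC1*, *SPARC* and *KIAA1324*, with root mean square differences of 0.04, 0.04 and 0.05 in log2 ratio over the 4 arrays. They were lowest on array 1 and nearest to 0 on array 3, a likeness to *AKT2* for which they were picked. In all, 199 symbols lay within a difference of 0.2. *SPARC*, a secreted matrix glycoprotein, fell by 0.63 on the log2 scale, and its signals were well above background in both channels. The HMB-treated channel of *KIAA1324* was well above background on 1 of 4 arrays.

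**Figure D2:**
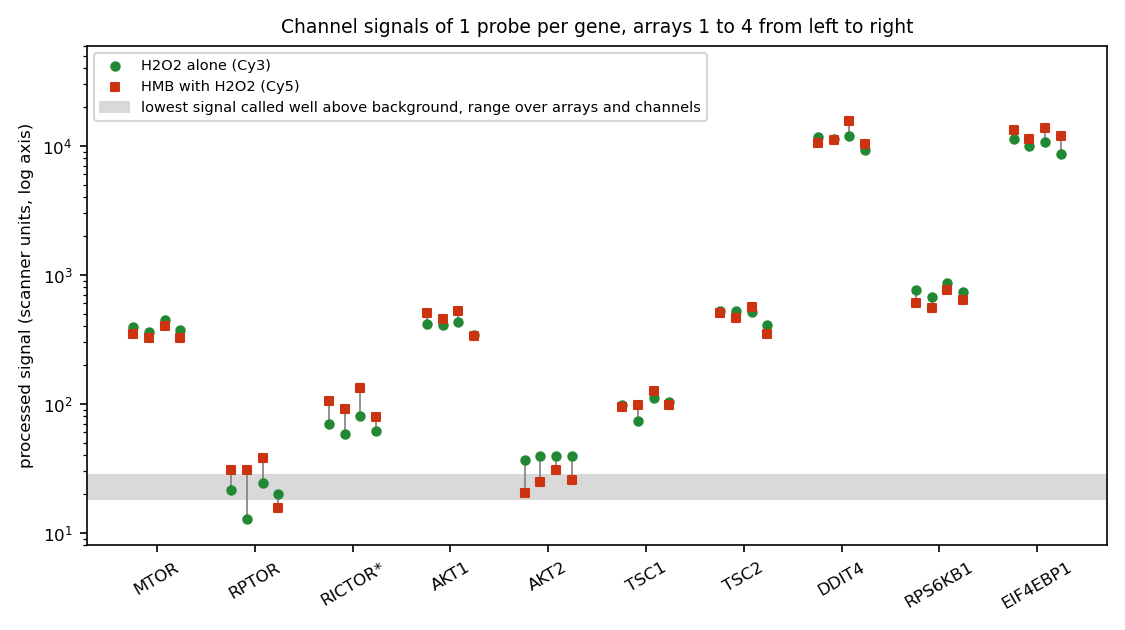
Processed signals in scanner units (log axis) of control (Cy3, circles) and HMB-treated cells (Cy5, squares) on arrays 1 to 4, for 1 probe per gene, with the range of the lowest signals called well above background shaded. The *AKT2* and *RPTOR* signals lay at or near the shaded range, and levels of different probes are not comparable.

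Of the members, the complex 1 inhibitors *TSC1*, *TSC2* and *DDIT4* showed no called change. After scaling to the spike-in controls *TSC2* was called lower (-0.50, adjusted p = 0.0020, limma). *TSC1*, which encodes hamartin, gave control signals of 97.4, 73.1, 110 and 103 and HMB-treated signals of 95.1, 97.0, 126 and 98.4 (chr25:3446942-3447001). HMB-treated cells were higher on arrays 2 and 3 and slightly lower on arrays 1 and 4. The mean log2 ratio was 0.12 ± 0.22 (SD, n = 4, interval -0.11 to 0.35, adjusted p = 0.324, limma), and 0.03 without array 2.

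*TSC2*, which encodes tuberin, the subunit that switches off the mTOR activator RHEB, gave 524, 520, 516 and 408 in control and 502, 459, 561 and 348 in HMB-treated cells (chrUn:73883700-73883828, a sequence not placed on a chromosome). It was lower with HMB on 3 of 4 arrays. The mean was -0.09 ± 0.16 (interval -0.28 to 0.10; adjusted p = 0.389, limma), and -0.16 to -0.04 with 1 array left out. *TSC1* exceeded *TSC2* in ratio by 0.03, 0.59, 0.07 and 0.16, and array 2 stood apart in this difference (mean 0.21 ± 0.26; exact two-sided sign-flip permutation p = 0.125).

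*DDIT4* was read by 7 probes in 2 sets. The 5 probes of the first set (chr1:59477238-59477304) overlap nearly completely and gave 8386 to 12130 in control and 9499 to 15452 in HMB-treated cells. The brightest of them gave ratios of -0.16, -0.03, 0.38 and 0.17, with a mean of 0.09 ± 0.24 (SD, n = 4; interval -0.15 to 0.33; adjusted p = 0.483, limma). The means of the 5 probes lay between 0.08 and 0.11.

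The 2 probes of the second set (chr1:59476447-59476507) gave 344 to 612 in control and 319 to 729 in HMB-treated cells, with means of 0.07 and 0.09. Both sets were highest on array 3, the single array on which they had the same sign. The first set lay below 0 on arrays 1 and 2 and above it on array 4, and the second set the reverse. No *DDIT4* probe was called, the adjusted p ranging from 0.358 to 0.521 with limma. Without array 3 the mean of the brightest probe was -0.01. Since probes of 1 set lie within a few bases of each other, their likeness is not replication.

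The 2 best known substrates of complex 1 lay on opposite sides of 0 on every array, except after scaling to the spike-in controls, which placed *EIF4EBP1* at -0.10 on average. *RPS6KB1*, the gene of S6 kinase 1, was lower with HMB on every array by each of its 3 probes. The brightest probe (chr11:32691944-32692003) gave 757, 675, 870 and 741 in control and 600, 557, 760 and 635 in HMB-treated cells, the control being the higher channel on each array. Its ratios of -0.34, -0.28, -0.19 and -0.22 averaged -0.26 ± 0.06 (SD, n = 4), FC 1.20, adjusted p = 0.0154 with limma, which passed the test but not the fold. It did not pass with loess after normexp correction (-0.16, adjusted p = 0.0532, limma) or with loess and no background correction (-0.15, adjusted p = 0.0505, limma). Nor did it pass with median centring without lowess (-0.18, adjusted p = 0.0780, limma). After scaling to the spike-in controls it was called (-0.67, adjusted p = 2.46e-04, limma).

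The other *RPS6KB1* probes lie adjacent to each other and were close to background. One (chr11:32690674-32690733) gave 27.4, 25.9, 30.2 and 22.7 in control and 19.6, 18.8, 22.7 and 17.6 in HMB-treated cells, and the HMB-treated channel was well above background on 1 of 4 arrays. Its ratios of -0.49, -0.46, -0.42 and -0.37 averaged -0.43 ± 0.05, FC 1.35, adjusted p = 0.002 with limma, so that it was called while the brightest was not. It was kept through its control channel alone and was not tested when both channels had to be well above background. The last (chr11:32690734-32690793) stood well above background in control cells on 2 of 4 arrays and in HMB-treated cells on none, and was not tested. Its ratios averaged -0.82, and with every probe tested it was called (adjusted p = 0.0275, limma). No bound on the fold is given since both channels lay near background.

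*EIF4EBP1*, the gene of 4E-BP1, was higher with HMB on every array. Its probe (chr27:7010147-7010206, minus strand) gave 11397, 9986, 10644 and 8696 in control and 13297, 11323, 13863 and 11975 in HMB-treated cells. The HMB-treated channel was the higher one on each array, although array 2 with HMB lay below array 1 of the control. The ratios of 0.22, 0.18, 0.38 and 0.46 averaged 0.31 ± 0.13 (SD, n = 4), FC 1.24, adjusted p = 0.0147 with limma, again short of 1.3-fold. With median centring without lowess *EIF4EBP1* was called (0.47, adjusted p = 0.0033, limma). The adjusted p was 0.0079 with loess after normexp correction and 0.0034 with loess and no background correction (limma). It was 0.0550 with the methods' t-test, and 0.0519 without array 3 and 0.0567 without array 4 with limma.

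On the same arrays *EIF4EBP1* exceeded *RPS6KB1* in ratio by 0.56, 0.46, 0.58 and 0.68 (mean 0.57 ± 0.09; exact two-sided sign-flip permutation p = 0.125, the smallest possible). The related genes lay on the same sides: *RPS6KB2*, which encodes S6 kinase 2, gave -0.28 ± 0.03 and was not called, and *EIF4EBP2*, the gene of 4E-BP2, rose by 0.39 ± 0.18 (FC 1.31, adjusted p = 0.0106, limma), with 4 of its 5 probes called. *EIF4EBP2* was named through the gene description.

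The wider pathway held 78 further genes in 4 lists, of which 72 had a probe and 57 were tested. Called changed were 19 of 57 (33.3%, against 27.3% of all gene symbols), 5 higher and 14 lower, that is 8.77% and 24.6% against 10% and 17.2% of all gene symbols. Their median log2 ratio was -0.11. With both channels required to be well above background, 15 of 51 genes were called, against 5870 of 22653 probes in all.

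Amino acid sensing at the lysosome held most of the genes that fell: 9 of 22 tested were lower and 1 was higher (40.9% and 4.55%), with a median of -0.20, against 17.2% lower and 10% higher of all gene symbols. *SESN1*, which encodes the leucine-binding protein sestrin 1 that restrains complex 1, fell by 1.18 ± 0.34 on the log2 scale (FC 2.26, adjusted p = 8.46e-04, limma), over a range of -1.50 to -0.73 on the arrays. *KPTN*, a subunit of the KICSTOR complex, fell by 0.80 ± 0.46 (adjusted p = 0.0101, limma), and *DEPDC5*, a subunit of GATOR1, by 0.70 ± 0.28 (adjusted p = 0.0036, limma). *KPTN*, *DEPDC5* and *FNIP2* were kept through the control channel alone, being well above background in HMB-treated cells on 1, 2 and 2 of 4 arrays, and 6 of the 9 lower calls had both channels well above it. *WDR59*, a subunit of GATOR2, rose by 0.51 ± 0.17 (adjusted p = 0.0035, limma).

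The other genes that fell in this list were *RRAGB*, *LAMTOR3*, *LAMTOR5*, *FNIP2*, *NPRL3* and *SEH1L*, at -0.60 to -0.38. They include subunits that activate complex 1 (*RRAGB*, *LAMTOR3*, *LAMTOR5*) as well as a subunit that restrains it (*NPRL3*). *LAMTOR1* and *LAMTOR2*, of the same Ragulator complex as *LAMTOR3*, gave -0.03 ± 0.05 and -0.02 ± 0.05 and were not called.

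Upstream of AKT and TSC, 5 of 12 tested genes were called (41.7%, against 27.3% of all gene symbols), 4 lower and 1 higher, with a median of -0.07. *PIK3CB*, a catalytic subunit of PI3K, fell by 0.92 ± 0.09 (FC 1.89, adjusted p = 1.43e-04, limma), and *PIK3CA*, another catalytic subunit, by 0.45 ± 0.13. *PRKAA2*, a catalytic subunit of the energy sensor AMPK, fell by 0.76 ± 0.20 (adjusted p = 0.0011, limma), with its HMB-treated channel well above background on 1 of 4 arrays, and *TBC1D7*, the third subunit of the TSC complex, by 0.48 ± 0.26 (adjusted p = 0.0126, limma). *IRS2*, an insulin receptor substrate, rose by 0.45 ± 0.33 (adjusted p = 0.0295, limma), over a wide range of 0.04 to 0.85. *RHEB*, the direct activator of complex 1, gave 0.10 ± 0.06 and was not called.

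Among outputs of mTOR and AKT, 4 of 17 tested genes were called (23.5%, against 27.3% of all gene symbols). *PDCD4*, a translation repressor degraded after phosphorylation by S6 kinase, rose by 0.71 ± 0.22 (FC 1.64, adjusted p = 0.0018, limma), and all 3 of its probes were called. *SGK1*, a kinase activated by complex 2, rose by 0.44 ± 0.07 (adjusted p = 0.0024, limma), and *EIF4EBP2* rose as given above. *GRB10*, an adaptor that inhibits insulin signalling, fell by 0.41 ± 0.11 (adjusted p = 0.0044, limma). *RPS6*, the ribosomal protein phosphorylated by S6 kinase, gave 0.06 ± 0.06 and was not called.

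**Figure D3:**
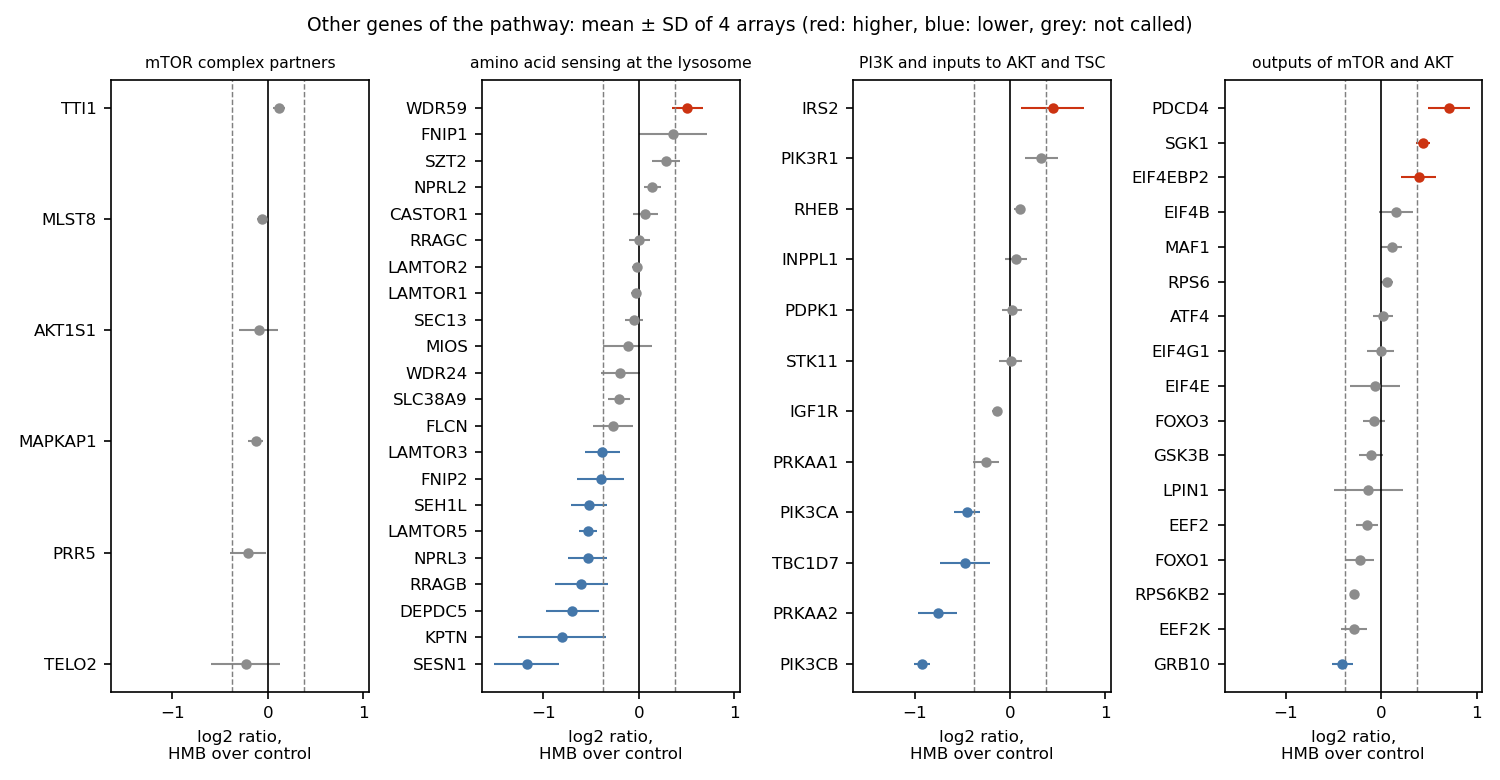
Mean log2 ratio of HMB-treated over control cells with the SD of 4 arrays for the 57 tested genes of the wider pathway in 4 lists, with called genes in colour and dashed lines at 1.3-fold. The list of amino acid sensing held 9 of the 14 genes called lower, and none of the 6 complex partners was called, against 27.3% of all gene symbols.

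**Figure D4:**
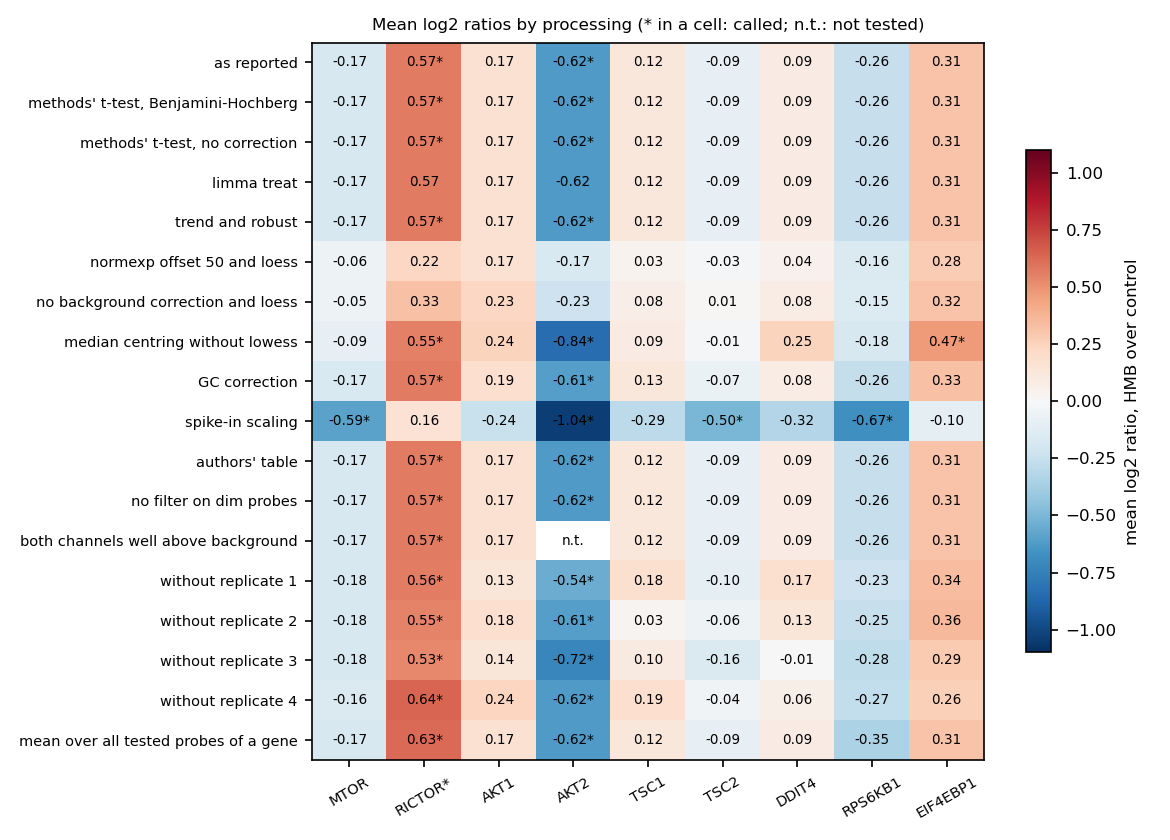
Mean log2 ratio of each tested member and *RICTOR* (columns) under each way of processing the arrays (rows), with an asterisk in a cell where the gene was called. *AKT2* stayed below 0 in every row where it was tested, and *RICTOR* above 0 in every row. Neither was called with limma treat, with loess after normexp or with loess and no background correction. *RICTOR* was also not called after spike-in scaling.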

How the data were processed

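The authors scanned the arrays and extracted them with Agilent Feature Extraction 10.10.1.1 (per the file headers), which subtracted background and normalized the dyes by lowess. The deposited values used here were the log10 ratio of Cy5 over Cy3, multiplied by log2 of 10, and the processed signal intensity of each channel in scanner units. The authors' table holds the same log10 ratios, which differed by at most 3.96e-05. Control spots and spots flagged as non-uniform or population outliers were left out, spots of 1 probe were averaged, and a probe was kept if 3 or more arrays gave a ratio and 1 of its channels stood well above background on each of the 4. Means were tested against 0 with limma 3.58.1 (lmFit and eBayes, R 4.3.3) and Benjamini-Hochberg adjustment, and the procedure was tested on simulated data. For each gene the brightest tested probe (mean log2 signal of both channels) was used, and names are those in the files. Of 78 listed genes, 8 tested ones and *RICTOR* were named through the gene description. All member probes are reported, while 1 gene of the lists and 1 marker are not reported here. Of each list, up to 3 called genes that rose most and 3 that fell most, with 1 sign on all arrays, are named, and the others named were chosen after their values were seen. The number of arrays limits the precision. Alternatives were other tests, background corrections, centrings, filters and arrays left out. The members and lists were chosen with earlier results of these data known.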

Additional observations from a re-analysis of the deposited data

How the results depend on the processing

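Each ratio already pairs both groups on 1 array, so that no further replicate block could be fitted. The normexp and no background correction settings also replaced the dye normalization by loess. With all 24670 probes, 7046 were called, 2822 with limma treat, 3539 with normexp correction, 4440 without background correction and 16754 after spike-in scaling, where the share of calls that were higher went from 42.5% to 8.28% (55.0% with normexp, 60.1% without background correction, 54.6% with treat). The spike-in controls read 0.35 to 0.45 above 0 on the log2 scale, so that this scaling moved the median of all probes from -0.07 to -0.48. The methods' t-test after Benjamini-Hochberg adjustment called 5030 of the 24670 probes, and median centring without lowess 7550. Of member probes, 2 were called, 0 with treat, normexp, no background correction or both channels above background, and 5 with spike-in scaling. Of member genes, 1 was called, 0 under those same 4 settings, 2 with median centring without lowess, 4 with spike-in scaling and 2 with *RICTOR* through its description, a choice made after seeing the data. Of listed genes, 19 were called, 11 with the methods' t-test after Benjamini-Hochberg adjustment, 3 with treat, 5 with normexp, 5 without background correction and 41 with spike-in scaling, none of these higher, and 14 of 49 when named by symbol alone, also chosen after seeing the data. Leaving out each array in turn gave 6637 to 7151 probes, 2 member probes, 1 member gene and 15 to 20 listed genes. Directions reversed for *TSC2* without background correction (0.012), for *AKT1* (-0.24), *EIF4EBP1* (-0.10), *TSC1* (-0.29) and *DDIT4* (-0.32) after spike-in scaling, and for *DDIT4* without array 3 (-0.0059; 0.17 without array 1, the highest value with an array left out). *AKT2* kept its direction under 16 of 16 alternatives, and was not called with treat (adjusted p = 0.132), normexp or no background correction. Dim signals limit *AKT2*, *RPTOR* and 2 of the 3 *RPS6KB1* probes. The causes of these changes were not tested.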
